A study of Mus musculus with 5 samples.

Results

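The 47 genes described here encode the contractile apparatus of striated muscle and the enzymes and membrane proteins that run it. They are a list of names among the 21883 protein coding genes of the gene table. No methylation value enters the rule, but the list was proposed with earlier results of these libraries known. DNA methylation was read by reduced representation bisulfite sequencing, which samples CpG cytosines in CpG-rich fragments, in mouse tissue of the C57BL/6x129S6 strain. The control was muscle, and the other libraries were teratomas, tumours of mixed differentiated tissue, which the design text traces to embryonic stem cells injected into tetraploid embryos. Their names, P5_2iL, P5_2iL_F, P5_a2iL_1 and P5_LCDM_1, stand for the culture condition of the stem cells. The labels do not spell these abbreviations out and give no age or muscle type. Each of the 5 groups held 1 library, so every difference below is between 2 libraries and has no replicate check.

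The sarcomere is the repeating contractile unit of a striated muscle fibre. Thin filaments of actin are anchored in the Z-disc, thick filaments of myosin slide along them, and calcium released from the sarcoplasmic reticulum starts the movement. Genes of this apparatus are known for being active in muscle and silent in most other tissues. Methylation of CpGs near a gene's start often goes with a silent gene, but it was the only quantity measured here and no RNA level was read. The teratomas and the muscle are mixtures of cells, and in such bulk samples a larger share of cells with methylated copies cannot be told apart from more methylation per cell.

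Each gene was described by the mean methylation level, in percent, at its CpG-richer end (reaching 1000 bp beyond the boundary and 500 bp into the gene) and in 1 kb tiles of its body, with 3 or more cytosines in common. At 32 of the 47 genes the end held 3 or more cytosines read in all 5 libraries. Of these ends 17 were the 5′ end, 5 were the 3′ end (Xirp2, Myh6, Myh7, Mb and Pygm), and for 10 the strand was not in the tables used. Eno3 had 1 such cytosine at its end, and 14 genes had none: Myoz1, Myoz2, Myot, Lmod2, Myl1, Myl3, Mybpc1, Mybph, Ttn, Atp2a1, Cacna1s, Cacng1, Trdn and Pgam2. Most of these could still be followed in the gene body, where 344 tiles in 43 genes were read in all 5 libraries. Lmod2 and Myl3 had neither an end nor a tile.

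A difference of 25 percentage points or more is called higher or lower below. This is a rule of size and not a test. The files give no read number per cytosine, so the depth behind a single percent is unknown, and the spread given here is the SD over the cytosines of a window, which are not replicates. Libraries listed 4017125 (muscle) to 5323090 (P5_2iL_F) cytosines, and their mean level over the 3079380 shared autosomal ones was 42.7% in muscle and 44.4% (P5_LCDM_1) to 49.5% (P5_2iL) in the teratomas. Opposite strands of the same CpGs give an error within a library. Among 178 member tiles with 3 or more CpGs read on both strands, the strands were 25 points or more apart in 18% in muscle, 1.69% in P5_2iL, 2.25% in P5_2iL_F, 5.06% in P5_a2iL_1 and 7.87% in P5_LCDM_1. Muscle, the reference of the 4 main comparisons, was thus the noisiest of the 5 libraries in gene bodies. At the 23 gene ends with 3 or more such CpGs the strands were that far apart at 1 in muscle, 0 in P5_2iL, 1 in P5_2iL_F, 2 in P5_a2iL_1 and 3 in P5_LCDM_1. The files hold no RNA levels against which the muscle label could be checked.

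The promoters are shown first, because the sequence lets each measured CpG be placed. RefSeq promoters (build GRCm38.p6, the same as mm10) run from 250 bases before to 50 bases after the annotated start. An entry was found for 33 of the 47 genes, and 11 genes had 3 or more shared cytosines in one. The 6 printed below were picked, after their values were known, as the promoters of 5 genes with large differences and of Actn2 as an unmethylated contrast. They are written 5′ to 3′ on the gene's strand, and capitals mark the CpGs read in all 5 libraries on 1 or both strands.
Des: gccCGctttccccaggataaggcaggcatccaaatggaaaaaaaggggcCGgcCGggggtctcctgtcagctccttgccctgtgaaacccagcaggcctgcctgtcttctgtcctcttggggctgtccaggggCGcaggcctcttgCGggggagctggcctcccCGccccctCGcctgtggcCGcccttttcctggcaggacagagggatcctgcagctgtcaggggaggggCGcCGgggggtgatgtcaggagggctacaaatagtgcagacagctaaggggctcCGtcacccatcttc
Ckm: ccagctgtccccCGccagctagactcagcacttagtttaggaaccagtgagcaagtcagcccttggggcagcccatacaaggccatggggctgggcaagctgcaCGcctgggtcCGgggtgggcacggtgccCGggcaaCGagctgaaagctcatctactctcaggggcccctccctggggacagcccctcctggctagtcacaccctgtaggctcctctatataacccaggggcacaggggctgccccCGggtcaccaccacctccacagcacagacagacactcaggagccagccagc
Ldb3: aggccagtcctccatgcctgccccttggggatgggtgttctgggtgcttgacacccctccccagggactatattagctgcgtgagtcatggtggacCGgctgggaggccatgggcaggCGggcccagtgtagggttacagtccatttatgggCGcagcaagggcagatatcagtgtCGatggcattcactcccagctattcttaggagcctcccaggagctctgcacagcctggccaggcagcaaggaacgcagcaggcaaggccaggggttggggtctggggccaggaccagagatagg
Myl1: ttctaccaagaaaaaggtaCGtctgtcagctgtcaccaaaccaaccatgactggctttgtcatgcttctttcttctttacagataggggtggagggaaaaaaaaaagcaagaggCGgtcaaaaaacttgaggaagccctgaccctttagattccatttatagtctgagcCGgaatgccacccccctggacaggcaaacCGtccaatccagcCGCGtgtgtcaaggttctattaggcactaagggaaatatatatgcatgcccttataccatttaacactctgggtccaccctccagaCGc
Jph2: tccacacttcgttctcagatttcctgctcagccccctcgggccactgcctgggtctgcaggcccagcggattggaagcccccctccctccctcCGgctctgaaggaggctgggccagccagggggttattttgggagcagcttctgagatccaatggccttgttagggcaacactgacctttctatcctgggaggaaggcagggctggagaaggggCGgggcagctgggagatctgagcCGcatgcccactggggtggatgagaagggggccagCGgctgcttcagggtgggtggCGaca
Actn2: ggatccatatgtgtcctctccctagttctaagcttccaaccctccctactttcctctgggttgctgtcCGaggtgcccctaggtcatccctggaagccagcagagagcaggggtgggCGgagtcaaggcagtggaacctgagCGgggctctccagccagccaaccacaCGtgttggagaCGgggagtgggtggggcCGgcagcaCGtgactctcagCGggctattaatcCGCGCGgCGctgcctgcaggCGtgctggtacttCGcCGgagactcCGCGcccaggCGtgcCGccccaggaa

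The Des promoter (chr1:75360042-75360341, plus strand) drives desmin, the intermediate filament that ties Z-discs together. Its 22 shared cytosines covered all 11 CpGs and averaged 4.11% in muscle (SD 11.5), 42.9% in P5_2iL, 38.6% in P5_2iL_F, 25.04% in P5_a2iL_1 and 13.9% in P5_LCDM_1. In muscle the 8 CpGs from 117 bp before the start onward were all at 0%. In P5_2iL the same 8 CpGs lay between 13.9% and 54.7%. Counted from the start, the CpG farthest upstream (247 bp before) was the most methylated in muscle at 21.4% and reached 86.4% in P5_2iL.

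Creatine kinase, encoded by Ckm, buffers ATP in the fibre. Its promoter (chr7:19410844-19411143, plus strand) was at 49.8% in muscle (SD 17.4, 9 cytosines), 91.5% in P5_2iL, 82.1% in P5_2iL_F, 67.5% in P5_a2iL_1 and 61.5% in P5_LCDM_1. The CpG 111 bp before the start was the lowest in muscle (31.1%) and also the lowest in P5_2iL (73.1%), P5_2iL_F (68.2%), P5_a2iL_1 (33.9%) and P5_LCDM_1 (32.5%). An internal promoter of Ldb3 (chr14:34588558-34588857, minus strand) was at 14.3% in muscle (SD 24.4, 7 cytosines), 90.5% in P5_2iL, 93.5% in P5_2iL_F, 100% in P5_a2iL_1 and 51.4% in P5_LCDM_1. Ldb3 encodes a PDZ and LIM domain protein of the Z-disc. All 4 of its measured CpGs were higher in each teratoma than in muscle.

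Myl1 encodes the essential myosin light chain of fast fibres. Its promoter (chr1:66945007-66945306, minus strand) was at 43.4% in muscle (SD 15.4, 11 cytosines), 92.8% in P5_2iL, 93.9% in P5_2iL_F, 71.0% in P5_a2iL_1 and 60.3% in P5_LCDM_1. The muscle values of its 7 CpGs ran from 25% to 66.7%, none of them near 0% or 100%. Jph2 encodes a junctophilin, which holds the cell membrane and the calcium store together, and its promoter (chr2:163397924-163398223, minus strand) read 7.41% in muscle (SD 9.69, 9 cytosines). The teratomas read 38.4% (P5_2iL), 35.4% (P5_2iL_F), 29.2% (P5_a2iL_1) and 18.4% (P5_LCDM_1) there. At the CpG-dense Actn2 promoter (chr13:12340683-12340982, minus strand, 24 cytosines in 19 CpGs) muscle was at 0.711% and the teratomas at 0.749% (P5_2iL_F) to 6.55% (P5_LCDM_1). Actn2 encodes an alpha-actinin that crosslinks actin in the Z-disc.

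**Figure D1:**
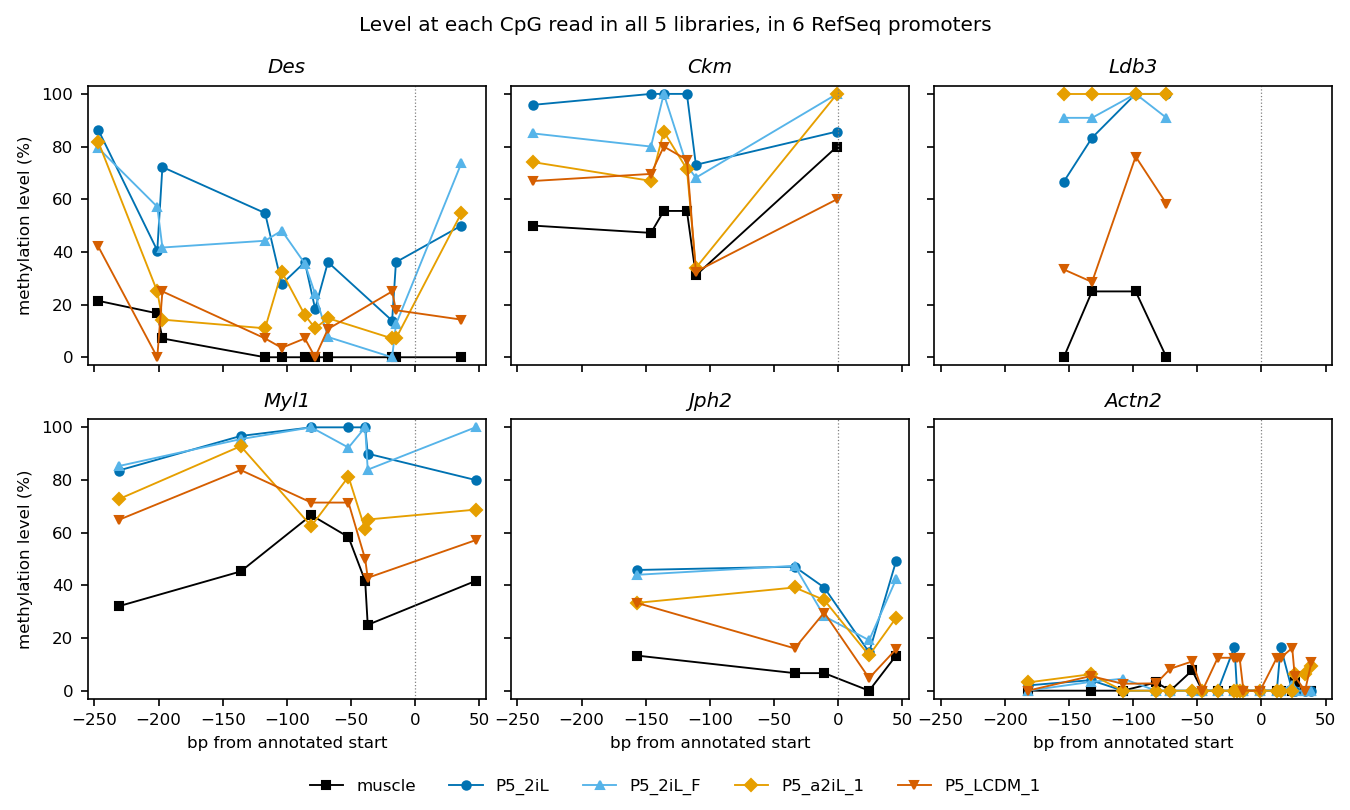
Methylation level (%, vertical axis) of each CpG read in all 5 libraries against its distance from the annotated start (bp, horizontal axis) in 6 promoters, with 1 line per library and strands averaged. Muscle lies at the bottom of the Ldb3 and Jph2 panels and, except at 1 CpG where P5_LCDM_1 is at 0%, of the Des panel, and the Actn2 promoter is near 0% in every library.

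Over the 11 measured promoters, 6 were higher in P5_2iL and 6 in P5_2iL_F, in each case Ckm, Des, Hspb7, Jph2, Ldb3 and Myl1, against 4.63% and 4.52% of all promoters. In P5_a2iL_1 3 were higher (Hspb7, Ldb3 and Myl1, background 3.41%) and in P5_LCDM_1 2 (Hspb7 and Ldb3, background 3.56%). None was lower in any of the 4 comparisons, where 1.22%, 1.3%, 1.04% and 1.5% of all promoters were. These comparisons share the muscle library and are not independent of each other. Of the remaining measured promoters, Acta1 was at 10.9% in muscle and 20.2% (P5_a2iL_1) to 32.1% (P5_2iL) in the teratomas. Over all the cytosines that P5_a2iL_1 shares with muscle the Acta1 order turned, at 15.95% in muscle and 14.3% in P5_a2iL_1. The upstream Mb promoter was at 91.0% or more in all 5.

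A script searched the promoters on both strands for the E-box CANNTG, read by myogenic factors among others, for a MEF2-type motif (CTA and TAG with any 4 bases between), and for the CArG box bound by SRF. The MEF2-type motif was in 15% of the 40 member promoters and in 3.69% of all 32851, and the CArG box in 12.5% and 1.63%. The last 2 motifs can overlap. CANNTG was in 87.5% of member promoters and in 72.3% of all. Des carries CTACAAATAG from 6 bp after the start, and the printed Ldb3 promoter carries CTATTCTTAG from 55 bp and CCATTTATGG from 109 bp before it. The second of these Ldb3 matches lies among the 4 measured CpGs, and the first lies between them and the start. Member promoters held a median of 6.5 CpGs (quartiles 2.75 and 9) and all promoters 7 (quartiles 3 and 20). CpG-dense promoters were thus rarer among the members, though the medians were close. A match is a run of letters and was not tested for binding.

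The ends of the 47 genes were less often free of methylation than those of other genes. Of the 32 measured ends, 7 (21.9%) were below 10% in all 5 libraries (Actn2, Actn3, Tpm2, Mylpf, Jph1, Hspb6 and Fbxo32), against 69.1% of all 14629 gene ends. At the other extreme 5 (15.6%) were above 60% in all 5 (Neb, Myh6, Myh7, Myl2 and Ampd1). Myh6, Myh7 and Myl2 rest on 3 to 5 cytosines. The like share of all ends was not counted. Among ends shared by muscle and P5_2iL, 6 of 33 members and 1787 of all 14850 were at 60% or more in muscle. Of the same ends, 9 members and 10389 of all held 30 or more cytosines. Member ends and all ends were thus not matched in CpG content, and the shares under 10% were not adjusted for it. The median of the 32 ends stood at 15.4% in muscle, 74.6% in P5_2iL, 59.6% in P5_2iL_F, 53.7% in P5_a2iL_1 and 47.6% in P5_LCDM_1. Over all gene ends it was 1.02% in muscle and 1.13% to 1.48% in the teratomas.

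Against muscle, 13 of 33 member ends were higher in P5_2iL (background 4.76% of all ends) and 13 of 32 in P5_2iL_F (background 4.53%). The counts were 8 of 33 in P5_a2iL_1 (background 3.18%) and 5 of 33 in P5_LCDM_1 (background 3.3%). No member end was lower in any of the 4, where 1.19%, 1.11%, 0.859% and 1.32% of all ends were. Ends were also compared with ends of like level in muscle. Among ends between 10% and 60% in muscle, 10 of 15 members were higher in P5_2iL against 30.2% of all such ends, 11 of 14 in P5_2iL_F against 29.1%, 4 of 13 in P5_a2iL_1 against 20.2% and 4 of 15 in P5_LCDM_1 against 19.9%. Among ends under 10% in muscle, 2 of 12 members were higher in P5_2iL against 0.806%, 2 of 12 in P5_2iL_F against 0.764%, 4 of 14 in P5_a2iL_1 against 0.845% and 1 of 12 in P5_LCDM_1 against 1.08%. The number of cytosines matters too: ends with 30 or more were higher in P5_2iL at 1 of 9 members and 1.17% of all, and ends with 3 to 9 at 5 of 8 and 18.6%. The median difference over the members was 16.9 points in P5_2iL, 14.3 in P5_2iL_F, 9.38 in P5_a2iL_1 and 5.58 in P5_LCDM_1, and over all ends it was 0.256 or less.

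**Figure D2:**
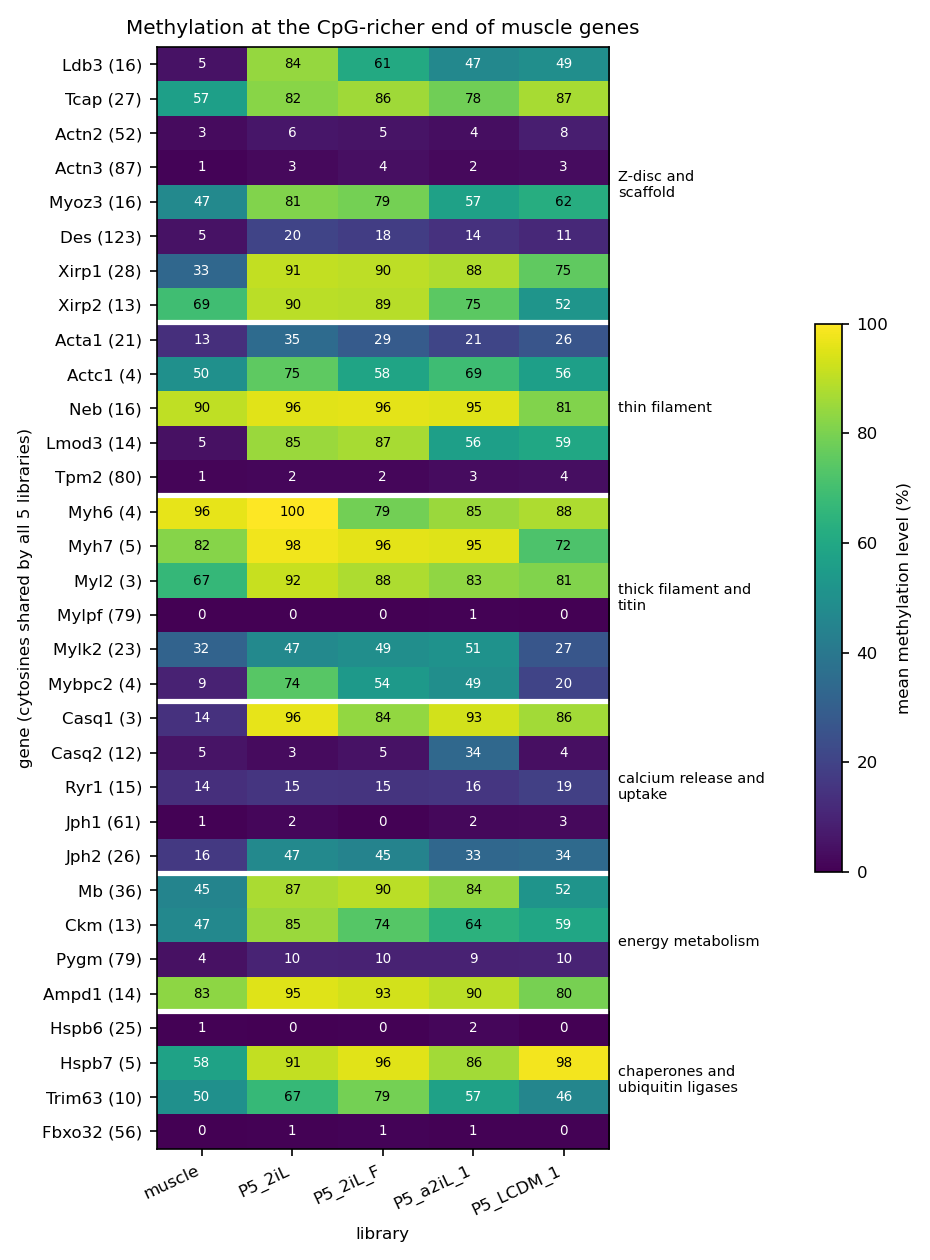
Mean methylation level (%, colour and printed number) at the CpG-richer end of the 32 measured genes in each library, ordered by role, with the number of shared cytosines after each name. Ldb3, Lmod3, Mybpc2 and Casq1 change from dark in muscle (5% to 14%) to bright in P5_2iL (74% to 96%), while Actn3, Tpm2, Mylpf, Jph1, Hspb6 and Fbxo32 stay under 5% throughout.

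In the Z-disc and scaffold group 8 of 11 genes had a measured end. Xirp1 encodes a Xin repeat protein that binds actin at sites under strain. Its end (chr9:120023099-120024598, 28 cytosines) was at 33.2% in muscle (SD 24.9), 90.7% in P5_2iL (SD 18.8), 90.1% in P5_2iL_F (SD 13.7), 88.1% in P5_a2iL_1 (SD 14.9) and 75.4% in P5_LCDM_1 (SD 19.1). In muscle its strands read 35.4% and 27.6%, and each teratoma was far above both. In P5_2iL 27 of the 28 cytosines were above muscle and 1 was below.

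The outer end of Ldb3 (chr14:34589815-34591314, 16 cytosines, touching Opn4) was at 4.69% in muscle, 84.2% in P5_2iL, 60.8% in P5_2iL_F, 46.7% in P5_a2iL_1 and 49.4% in P5_LCDM_1. This window lies 1134 bp from the nearest annotated Ldb3 start, and the promoter printed above overlaps that of this start. With the 22 cytosines that muscle and P5_LCDM_1 share, the 2 libraries read 14.8% and 35.9%, a difference of 21.1 points that misses the rule. Tcap encodes telethonin, which caps titin in the Z-disc, and its end (chr11:98382811-98384310, 27 cytosines) was at 56.6% in muscle, 82.3% in P5_2iL, 85.9% in P5_2iL_F, 78.4% in P5_a2iL_1 and 87.1% in P5_LCDM_1. It was called in P5_2iL, P5_2iL_F and P5_LCDM_1 and missed the rule in P5_a2iL_1.

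Myoz3 encodes a calsarcin, which links alpha-actinin and calcineurin. Its end (16 cytosines) was at 47.2% in muscle, 81.2% in P5_2iL, 79.2% in P5_2iL_F, 57.2% in P5_a2iL_1 and 62.2% in P5_LCDM_1, and only P5_2iL and P5_2iL_F passed the rule. The muscle strands read 61.4% and 30.1%, a gap nearly as wide as the difference between the libraries. Des, with 123 cytosines the most densely read end, was at 4.75% in muscle, 20.4% in P5_2iL, 18.2% in P5_2iL_F, 14.1% in P5_a2iL_1 and 11.4% in P5_LCDM_1 over the whole window. No Des difference reached 25 points there, unlike in the 300 bp promoter inside it. Xirp2, read at its 3′ end, was at 69.2% in muscle, 89.6% in P5_2iL, 89.2% in P5_2iL_F, 74.9% in P5_a2iL_1 and 52.1% in P5_LCDM_1 (13 cytosines). Actn2 (52 cytosines) read 2.85% to 8.32% and Actn3, the fast-fibre alpha-actinin (87 cytosines, touching Zdhhc24), 0.876% to 4.22% over the 5 libraries.

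In the thin filament group 5 of 6 genes were measured. Lmod3 encodes a leiomodin that nucleates actin filaments, and it had the largest fully read difference of the group. Its end (chr6:97252718-97254217, 14 cytosines) was at 4.64% in muscle (SD 9.29), 85.1% in P5_2iL (SD 17.2), 86.9% in P5_2iL_F (SD 26.5), 56.3% in P5_a2iL_1 (SD 29.7) and 59.5% in P5_LCDM_1 (SD 27.5). In P5_2iL and in P5_LCDM_1 all 14 cytosines were above muscle, and the muscle strands read 0% and 6.67%. The Lmod3 call held on each strand alone in all 4 comparisons.

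Acta1, skeletal alpha-actin, was at 13.3% in muscle, 34.8% in P5_2iL, 28.8% in P5_2iL_F, 20.8% in P5_a2iL_1 and 26.4% in P5_LCDM_1 (21 cytosines), and no comparison passed the rule. Over the 28 cytosines that P5_a2iL_1 and muscle share, the Acta1 difference was -0.135 points. Actc1, cardiac alpha-actin, had 4 cytosines and was called in P5_2iL at exactly 25 points (50% in muscle, 75% in P5_2iL). Its strands went opposite ways there, by -50 and 50 points, so this call rests on very little. Nebulin, the ruler of the thin filament encoded by Neb, was at 90.3% in muscle, 95.7% in P5_2iL, 95.9% in P5_2iL_F, 95.0% in P5_a2iL_1 and 81.2% in P5_LCDM_1 (16 cytosines). Tpm2, a tropomyosin (80 cytosines), stayed between 1.48% and 3.52%.

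The thick filament and titin group had 6 of 11 ends measured. Mybpc2, the fast-fibre myosin-binding protein C, was at 9.38% in muscle, 74.2% in P5_2iL, 53.9% in P5_2iL_F, 49.2% in P5_a2iL_1 and 20.4% in P5_LCDM_1 (chr7:44524216-44525715, 4 cytosines). All 4 cytosines were above muscle in P5_2iL, P5_2iL_F and P5_a2iL_1, and P5_LCDM_1 missed the rule. Mylk2, the skeletal myosin light chain kinase, was at 31.7% in muscle, 47.3% in P5_2iL, 49.4% in P5_2iL_F, 51.1% in P5_a2iL_1 and 26.8% in P5_LCDM_1 (23 cytosines). With the 33 cytosines shared with P5_2iL_F it was called there, at 25.1% in muscle and 53.6% in P5_2iL_F. Myl2, the regulatory light chain of slow and cardiac myosin, had 3 cytosines and was called in P5_2iL at exactly 25 points (66.7% and 91.7%).

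The cardiac and slow myosin heavy chains were highly methylated at the 3′ ends read. Myh6 was at 96.4% in muscle and 78.7% (P5_2iL_F) to 100% (P5_2iL) in the teratomas over 4 cytosines, in a window that touches Cmtm5. Myh7 was at 81.7% in muscle, 97.8% in P5_2iL, 96.0% in P5_2iL_F, 95.0% in P5_a2iL_1 and 71.9% in P5_LCDM_1 over 5. Mylpf, the fast regulatory light chain, was below 0.6% in every library (79 cytosines), but its window touches Tbc1d10b and lies 2261 bp from the annotated Mylpf start.

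For calcium release and uptake, 5 of 9 ends were measured. Casq1 encodes the calcium-binding calsequestrin of skeletal muscle. Its end (chr1:172219396-172220895) had only 3 shared cytosines, at 14.3% in muscle, 96.3% in P5_2iL, 83.6% in P5_2iL_F, 93.3% in P5_a2iL_1 and 86.1% in P5_LCDM_1. All 3 cytosines were above muscle in each teratoma. Casq2, the cardiac calsequestrin, had a different order: its end (chr3:102085415-102086914, 12 cytosines) was at 5.16% in muscle, 2.78% in P5_2iL, 4.88% in P5_2iL_F, 33.7% in P5_a2iL_1 and 4.06% in P5_LCDM_1. In P5_a2iL_1 11 of the 13 cytosines shared with muscle were above it and none below, with the strands at 13.3% and 44.2%.

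The Jph2 end (chr2:163397550-163399049, 26 cytosines) was at 16.5% in muscle, 46.9% in P5_2iL, 44.9% in P5_2iL_F, 33.5% in P5_a2iL_1 and 34.4% in P5_LCDM_1, and P5_2iL and P5_2iL_F passed the rule. Jph1, its skeletal relative (61 cytosines), stayed between 0.439% and 2.66%. Ryr1, the calcium release channel, was at 13.6% in muscle and 15.0% (P5_2iL_F) to 19% (P5_LCDM_1) in the teratomas (15 cytosines). The ends of these 2 genes thus did not differ by 25 points between any of the libraries.

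In energy metabolism 4 of 6 ends were measured in all 5 libraries. Myoglobin stores oxygen in the fibre, and the 3′ end of Mb (chr15:77014487-77015986, 36 cytosines) was at 45.0% in muscle (SD 37.3), 87.3% in P5_2iL (SD 18.6), 89.8% in P5_2iL_F (SD 15.0), 84.0% in P5_a2iL_1 (SD 22.3) and 51.7% in P5_LCDM_1 (SD 29.1). P5_LCDM_1 was close to muscle here and the other teratomas were called. The muscle strands of Mb read 48.9% and 48.4%. The Ckm end (chr7:19410094-19411593, 13 cytosines), which holds the promoter above, was at 46.8% in muscle, 85.1% in P5_2iL, 73.8% in P5_2iL_F, 64.5% in P5_a2iL_1 and 59.2% in P5_LCDM_1, with calls in P5_2iL and P5_2iL_F. Ampd1, the AMP deaminase of muscle, was at 83.0% in muscle and 79.6% (P5_LCDM_1) to 95.0% (P5_2iL) in the teratomas (14 cytosines). Pygm, muscle glycogen phosphorylase, read 4.43% in muscle and 9.40% to 10.01% in the teratomas at a 3′ end (79 cytosines) that touches Rasgrp2.

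Among chaperones and ubiquitin ligases all 4 ends were measured. Hspb7, a small heat shock protein of heart and skeletal muscle, was at 57.5% in muscle (SD 14.2), 90.8% in P5_2iL (SD 3.44), 95.6% in P5_2iL_F (SD 7.24), 86.1% in P5_a2iL_1 (SD 10.02) and 98.2% in P5_LCDM_1 (SD 4.07; chr4:141419779-141421278, 5 cytosines). All 4 teratomas were called there. Trim63, the MuRF1 ubiquitin ligase of muscle wasting, was at 50.2% in muscle, 67.1% in P5_2iL, 79.0% in P5_2iL_F, 57.3% in P5_a2iL_1 and 45.8% in P5_LCDM_1 (10 cytosines), and was called in P5_2iL_F. Fbxo32, which encodes the ligase atrogin-1, was at 1.07% or less (56 cytosines) and Hspb6 at 1.64% or less (25 cytosines, touching Proser3) in every library.

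**Figure D3:**
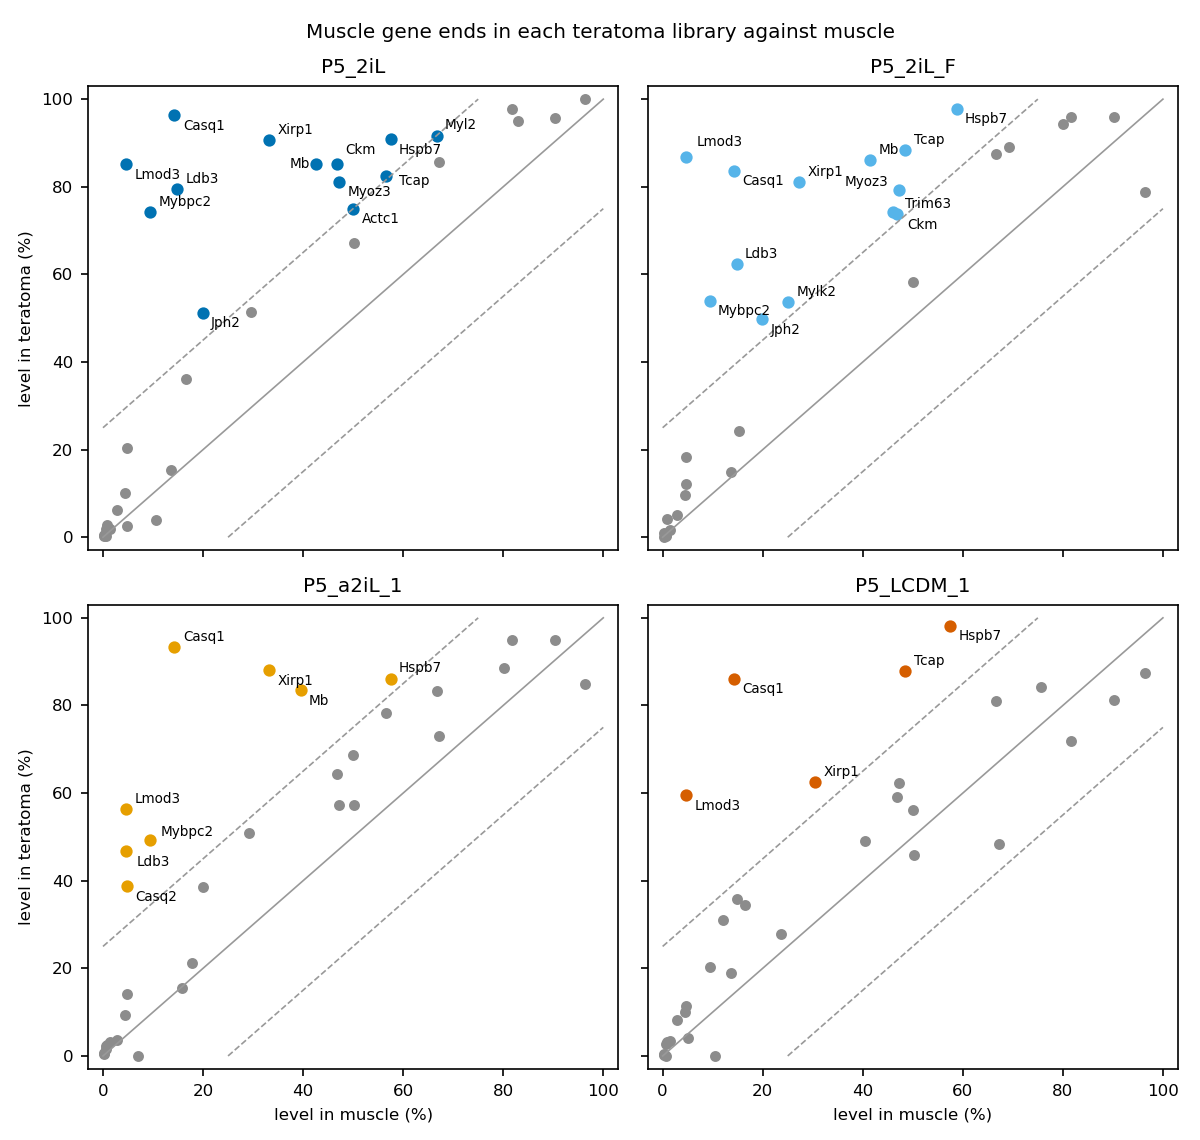
Level of each measured gene end in a teratoma (%, vertical axis) against muscle (%, horizontal axis), 1 panel per teratoma, over the cytosines both libraries list. Named coloured points are 25 points or more above muscle (beyond the upper dashed line), 13 in P5_2iL, 13 in P5_2iL_F, 8 in P5_a2iL_1 and 5 in P5_LCDM_1, and no point lies below the lower dashed line.

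The calls were also read on each strand. These cytosines are among those that made each call, so agreement in direction was largely given and is no separate check. Of the called ends with CpGs read on both strands, both strands were above muscle in 9 of 10 in P5_2iL (the exception is Actc1), 12 of 12 in P5_2iL_F, 5 of 5 in P5_a2iL_1 and 3 of 3 in P5_LCDM_1. Both strands passed 25 points in 7, 8, 3 and 3 of these. Fast-fibre members (Actn3, Casq1, Mylpf, Mybpc2 and Mylk2 measured) were higher at 2 of 5 ends in P5_2iL, 3 in P5_2iL_F, 2 in P5_a2iL_1 and 1 in P5_LCDM_1. Slow and cardiac members (Myh6, Myh7, Myl2, Casq2 and Actc1 measured) were higher at 2, 0, 1 and 0 of 5. Over all ends the shares higher were 4.76%, 4.53%, 3.18% and 3.3%, and 5 ends are too few to set the lists apart. The median level in muscle was 9.38% in the fast list and 66.7% in the slow and cardiac list. These medians set unlike places side by side. Myh6 and Myh7 were read at 3′ ends over 4 and 5 cytosines, and Myl2 and Actc1 over 3 and 4. The Actn3 and Mylpf windows touch other genes, and that of Mylpf does not hold its annotated start.

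Gene bodies showed a smaller excess over the background than gene ends. In P5_2iL 100 of 361 member tiles (27.7%) were higher than muscle, against 17.9% of all gene body tiles, and 6 (1.66%) were lower against 3.59%. In P5_2iL_F 94 of 372 (25.3%, background 16.8%) were higher and 11 (2.96%, background 3.51%) lower. P5_a2iL_1 had 62 of 355 higher (17.5%, background 11.9%) and 9 lower (2.54%, background 3.22%), and P5_LCDM_1 57 of 368 higher (15.5%, background 10.4%) and 18 lower (4.89%, background 5.84%). The share of lower tiles was thus near or below the background in each. Both directions together made 106, 105, 71 and 75 tiles, with backgrounds of 21.5%, 20.3%, 15.1% and 16.3%. Tiles outside the end windows gave 26.2%, 23.9%, 16.6% and 14.7% higher.

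Energy metabolism genes had the largest share of higher tiles of the 6 groups in P5_2iL (44.2%, 19 of 43), P5_2iL_F (43.2%, 19 of 44), P5_a2iL_1 (33.3%, 14 of 42) and P5_LCDM_1 (37.2%, 16 of 43). In P5_2iL all 6 genes of the group had such a tile, as did 36 of the 43 member genes with tiles. The like share of all genes was not counted. With 17.9% of all tiles higher, a gene with many tiles often holds such a tile, so these gene counts say little about the members. Genes of calcium release and uptake had 23.1%, 21.7%, 11.9% and 10.4%, close to the background in P5_a2iL_1 and P5_LCDM_1. Jph2 stood within that group with 9 of 17 tiles higher in P5_2iL and 9 in P5_2iL_F, 6 in P5_a2iL_1 and 2 in P5_LCDM_1. The last is near the background of 10.4%. Ryr1 had 5 of 46 in P5_2iL, a share below the background of 17.9%. Acta1, Mybpc2, Myoz2, Jph1, Trdn and Fbxo32 had no higher tile in any comparison. Ttn, which encodes titin, had 9 of 52 higher in P5_2iL, 11 of 53 in P5_2iL_F, 9 of 51 in P5_a2iL_1 and 6 of 54 in P5_LCDM_1. The backgrounds were 17.9%, 16.8%, 11.9% and 10.4%, so Ttn was near them in P5_2iL and P5_LCDM_1.

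**Figure D4:**
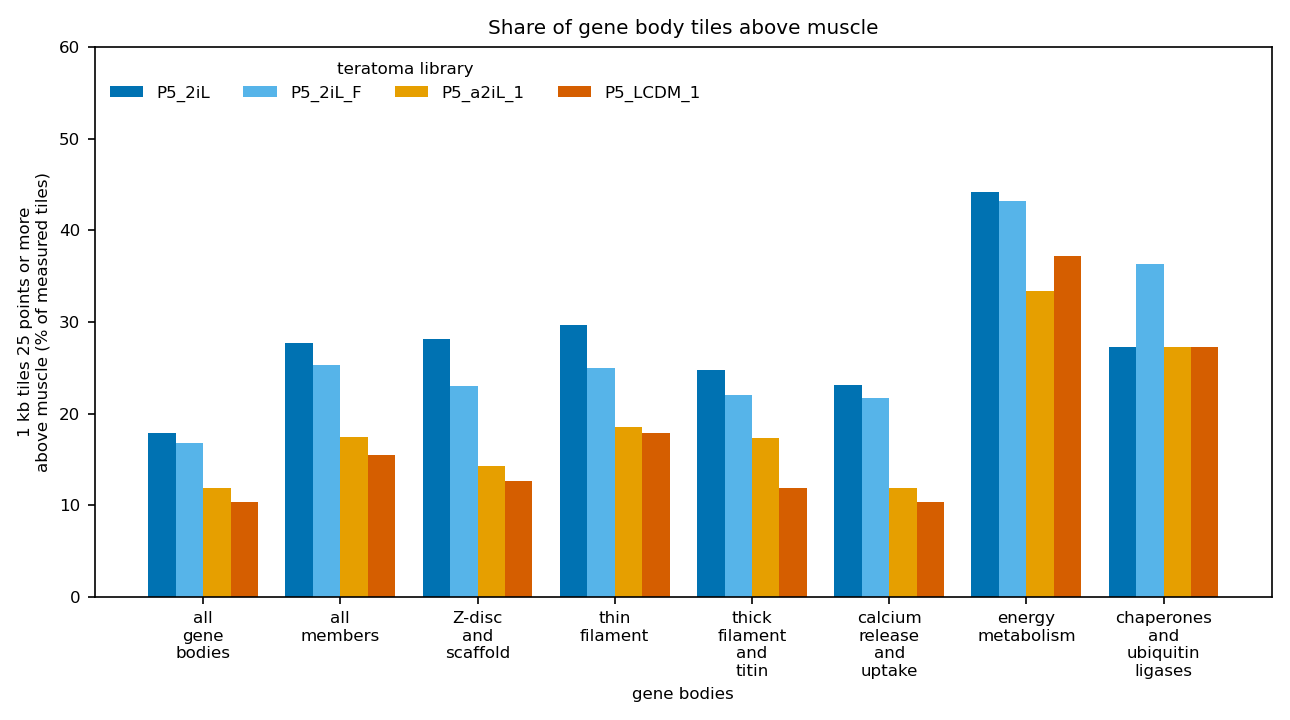
Share of 1 kb gene body tiles that were 25 points or more above muscle (% of measured tiles, vertical axis from 0) for all gene bodies, all members and each role group, with 1 bar per teratoma. Energy metabolism has the tallest bars (33.3% to 44.2%) and all gene bodies 10.4% to 17.9%; the chaperone group rests on 11 tiles.

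The tiles farthest from muscle were read with 5 or more shared cytosines. In the body of Jph2 a tile 12549 bp from the 5′ end (chr2:163385001-163386000, 8 cytosines) was at 1.79% in muscle, 91.2% in P5_2iL, 88.6% in P5_2iL_F, 85.2% in P5_a2iL_1 and 82.3% in P5_LCDM_1. Its muscle strands read 0% and 4.76%. The Hspb6 gene, unmethylated at its 5′ end, had a downstream tile (chr7:30554001-30555000, 10 cytosines, no CpG read on both strands) at 0% in muscle and 85.0% (P5_2iL_F) to 100% (P5_2iL) in the teratomas. In Mb a tile 14168 bp from the 5′ end (chr15:77036001-77037000, 14 cytosines) was at 9.25% in muscle, 92.9% in P5_2iL, 83.7% in P5_2iL_F, 50.2% in P5_a2iL_1 and 50.6% in P5_LCDM_1. P5_a2iL_1 and P5_LCDM_1 lay about midway at Mb, whereas at Jph2 and Hspb6 all the teratomas lay near the top.

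Several genes without a measured end had such tiles. Ttn had one 44057 bp from its 5′ end (chr2:76938001-76939000, 21 cytosines) at 19% in muscle, 87.3% in P5_2iL, 80.5% in P5_2iL_F, 62.6% in P5_a2iL_1 and 61.9% in P5_LCDM_1. Titin spans from the Z-disc to the middle of the sarcomere. Myot encodes myotilin of the Z-disc, and its tile (chr18:44337001-44338000, 22 cytosines) was at 25.8% in muscle, 93.7% in P5_2iL, 90.05% in P5_2iL_F, 84.2% in P5_a2iL_1 and 71.0% in P5_LCDM_1. A tile of Atp2a1, the calcium pump of fast fibres, read 32.3% in muscle and 81.7% (P5_LCDM_1) to 93.1% (P5_2iL_F) in the teratomas (7 cytosines). Myl1 showed 42.8% in muscle and 62.2% (P5_LCDM_1) to 94.1% (P5_2iL_F) in the tile that holds its promoter (12 cytosines). Mybpc1 (13 cytosines) and Mybph (6 cytosines) were at 43.1% and 50% in muscle and at 74.6% to 94.9% and 75.2% to 97.6% in the teratomas.

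Neb, high at its end in every library, had 3 of the named tiles. The one with 23 cytosines (chr2:52335001-52336000) was at 34.9% in muscle, 91.1% in P5_2iL, 88.7% in P5_2iL_F, 82.2% in P5_a2iL_1 and 76.8% in P5_LCDM_1. Its muscle strands read 10.4% and 62.5%, further apart than the 25 points of the rule. The same held in muscle for named tiles of Mylk2 (19.7% and 60.9%), Trim63 (12.5% and 50%), Ampd1 (62.5% and 20.6%), Ttn (10% and 66.7%) and, at 1 CpG, Atp2a1 (68.2% and 20%). The tile beside it (chr2:52336001-52337000, 7 cytosines) read 37.6% in muscle and 88.1% to 99.1% in the teratomas. Ampd1 had 2 tiles at 32.2% and 43.1% in muscle and 81.1% to 86.8% and 91.0% to 97.5% in the teratomas, with P5_LCDM_1 (84.4% and 93.7%) level with the others. Casq1 had a body tile (8 cytosines) at 31.2% in muscle, 100% in P5_2iL, 95.8% in P5_2iL_F, 50% in P5_a2iL_1 and 83.3% in P5_LCDM_1.

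The other named tiles above were also higher in P5_2iL than in muscle. Mylpf, nearly free of methylation at the end read, had a tile near its other end (7 cytosines, touching Septin1) at 14.3% in muscle and 55.4% to 81.1% in the teratomas. Casq2 (6 cytosines) read 16.4% in muscle and 50% to 77.6% in the teratomas. Trim63 (18 cytosines), Mylk2 (24) and Myh7 (5) read 36.1%, 37.6% and 46.7% in muscle and 84.4%, 87.4% and 100% in P5_2iL. Xirp1 and Ldb3 had tiles at or near their ends, at 33.5% and 35.7% in muscle and 91.0% and 85.7% in P5_2iL. The remaining named tiles of Jph2, Mb, Ttn, Neb and Ryr1 read 20% to 38.0% in muscle and 71.5% to 93.6% in P5_2iL.

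A few tiles had an order of their own. In Ryr1 a tile 100679 bp from the 5′ end (chr7:29024001-29025000, 17 cytosines) was the reverse of most: 94.1% in muscle, 23.5% in P5_2iL, 36.0% in P5_2iL_F, 66.7% in P5_a2iL_1 and 88.2% in P5_LCDM_1. Its strands in P5_2iL read 39.6% and 11.1%. Eno3, the muscle enolase of glycolysis, had a tile (chr11:70656001-70657000, 14 cytosines, touching Pfn1) at 0% in muscle, 39.3% in P5_2iL, 49.4% in P5_2iL_F, 22.6% in P5_a2iL_1 and 0% in P5_LCDM_1. This tile lies just upstream of the annotated Eno3 start and overlaps its promoter (chr11:70656926-70657225, plus strand). No cytosine was listed in that promoter itself. At the 5′ end of Pygm (chr19:6384001-6385000, 20 cytosines) muscle read 16.4%, P5_2iL 41.9%, P5_2iL_F 48.5%, P5_a2iL_1 53.6% and P5_LCDM_1 65.3%. P5_LCDM_1 was thus the highest at Pygm and equal to muscle at Eno3.

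Tiles below muscle were few. In Neb 2 neighbouring tiles (chr2:52296001-52297000 with 6 cytosines and chr2:52297001-52298000 with 3) were at 71.0% and 76.2% in muscle, 30.6% and 12.2% in P5_2iL, 31.0% and 21.0% in P5_2iL_F, 22.2% and 20% in P5_a2iL_1 and 42.6% and 35.2% in P5_LCDM_1. They lie in the same gene as the 3 tiles above muscle. Trdn, encoding triadin of the calcium release complex, had 3 tiles (3 to 5 cytosines) at 86.7% to 98.1% in muscle and 58.2% to 61.3% in P5_LCDM_1, with 88.8% or more in P5_2iL and P5_2iL_F. These Neb and Trdn tiles were picked after their values were seen.

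**Figure D5:**
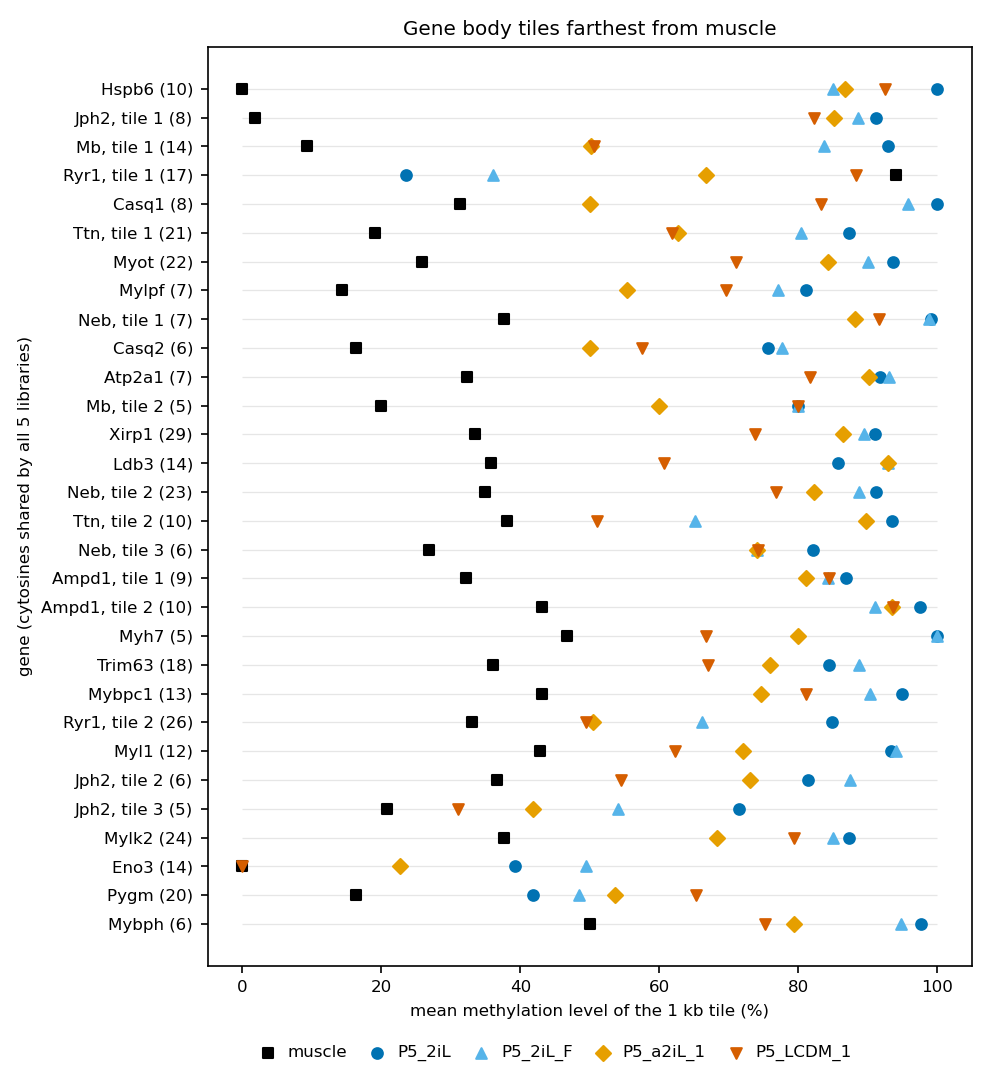
Mean methylation level (%, horizontal axis) of the 30 named gene body tiles in each library, 1 row per tile with the number of shared cytosines, ordered by the largest difference from muscle. The muscle square lies to the left of P5_2iL in every row except Ryr1 tile 1, where muscle is at 94.1%.

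Between teratomas the members differed less, and the differences mostly placed P5_LCDM_1 low. P5_2iL_F and P5_2iL had none of 32 member ends 25 points apart, where P5_2iL_F was higher at 0.367% and lower at 0.439% of all ends. P5_LCDM_1 was lower than P5_2iL at 6 of 33 ends (Xirp2, Lmod3, Myh7, Mybpc2, Mb and Ckm) and higher at none, against 3.23% lower and 1.3% higher of all ends. It was lower than P5_2iL_F at Xirp2, Lmod3, Mylk2, Mb and Trim63 (background 3.06%) and lower than P5_a2iL_1 at Mybpc2, Casq2 and Mb (background 1.79%). It was higher than neither at any end, against 1.2% and 1.34% of all ends. P5_a2iL_1 was lower than P5_2iL (background 2.06%) and than P5_2iL_F (background 1.65%) at Lmod3, Myh6 and Hspb7, and higher than each at Casq2 (background 1.11% and 0.879%). None of Lmod3, Myh6 and Casq2 passed 25 points on both strands there, and Hspb7 had no CpG read on both. Myh6 and Hspb7 had only 4 and 5 cytosines read in all 5 libraries.

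Mb gave the widest read of these: over 38 cytosines P5_LCDM_1 was at 49.0% and P5_2iL at 85.3%, with 34 cytosines lower and 1 higher in P5_LCDM_1. Xirp2 read 48.4% and 85.6% over 14 cytosines, with 13 lower and none higher. At Lmod3 the 2 libraries were at 59.5% and 85.1%, but the strands differed by -6.41 and -47.5 points. Over the 32 ends P5_2iL was the highest teratoma at 15 and P5_LCDM_1 the lowest at 15. The like count over all ends was not made. Over all shared autosomal cytosines P5_2iL was also the highest teratoma (49.5%) and P5_LCDM_1 the lowest (44.4%), so this order was not particular to the members.

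In gene bodies P5_LCDM_1 was lower than P5_2iL at 75 of 391 member tiles (19.2%, background 13.3%) and higher at 5 (1.28%, background 3.27%). Calcium release and uptake genes had 32 of 110 tiles lower (29.1%) and energy metabolism genes 7 of 46 lower (15.2%) and 3 higher. Compared with P5_2iL_F, P5_LCDM_1 was lower at 64 of 406 (15.8%, background 12.2%) and higher at 11 (2.71%, background 3.33%), and compared with P5_a2iL_1 it was lower at 31 of 386 (8.03%, background 7.77%) and higher at 10 (2.59%, background 3.81%). P5_a2iL_1 was lower than P5_2iL at 32 of 385 (8.31%, background 7.29%), of which 18 lay in calcium release and uptake genes, and higher at 4 (1.04%, background 3.15%). It was lower than P5_2iL_F at 23 of 392 (5.87%, background 6.25%) and higher at 4 (1.02%, background 3.01%), so these shares of lower tiles were near the background. P5_2iL_F and P5_2iL differed at 9 of 400 tiles, 2 higher and 7 lower (background 1.8% and 2.05%).

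Other genes of the muscle apparatus, from a list of 52, served as a comparison. Of these 4 of 32 ends were higher in P5_2iL, 6 of 33 in P5_2iL_F, 4 of 32 in P5_a2iL_1 and 4 of 33 in P5_LCDM_1. None was lower, so the share higher was 12.1% to 18.2%. Over all ends 4.76%, 4.53%, 3.18% and 3.3% were higher and 1.19%, 1.11%, 0.859% and 1.32% lower. Csrp3, a LIM protein of the Z-disc, was at 39.5% in muscle and 82.9% in P5_2iL (8 cytosines). Myh4, a fast myosin heavy chain, was at 39.5% in muscle, 77.5% in P5_2iL, 77.2% in P5_2iL_F and 72.2% in P5_LCDM_1 (6 cytosines). The 47 genes were proposed with earlier results of these libraries known, so a larger share among them than in this list is not independent evidence.

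Ends of genes that mark other cell types also differed between the libraries. Over all ends, 1.19% (P5_2iL), 1.11% (P5_2iL_F), 0.859% (P5_a2iL_1) and 1.32% (P5_LCDM_1) were lower than muscle. In the same order 4.76%, 4.53%, 3.18% and 3.3% were higher. Of leukocyte markers 4 of 5 were lower in P5_2iL and in P5_2iL_F, 2 of 4 in P5_a2iL_1 and 3 of 5 in P5_LCDM_1; Rac2 was at 94.4% in muscle and 0% in P5_2iL, 1.14% in P5_2iL_F, 55.6% in P5_a2iL_1 and 57.6% in P5_LCDM_1. Spi1, also a leukocyte marker, was higher by 55.3 points in P5_2iL (40.2% in muscle, 95.6% in P5_2iL) and by 36.5 points in P5_2iL_F. Of smooth muscle markers 2 of 5 were higher in P5_2iL and in P5_2iL_F and 1 in P5_a2iL_1 and in P5_LCDM_1, with Lmod1 at 14.7% in muscle and 76.6% in P5_2iL. Endothelial, neural, epithelial, adipocyte and fibroblast lists had 0 to 2 higher and 0 or 1 lower of 4 to 6 in each comparison. Lists with 2 higher were adipocyte (of 5) and neural (of 6) in P5_2iL, and endothelial (of 5) and neural (of 6) in P5_a2iL_1. In P5_LCDM_1 they were fibroblast (of 5) and epithelial (of 6). A share of 2 of 5 (40%) was no smaller than that of the 47 genes there (39.4%, 24.2% and 15.2%). In P5_2iL_F the endothelial, neural, epithelial, adipocyte and fibroblast lists had 0% to 20% higher, against 40.6% of the 47 genes. Higher ends thus also occurred outside the muscle genes, in shares that varied by list and library, and these lists are small. The leukocyte medians were 55.3% in muscle, 0.599% in P5_2iL, 6.30% in P5_2iL_F, 36.7% in P5_a2iL_1 and 48.0% in P5_LCDM_1. The part of such differences in cell makeup in the muscle gene results was not tested.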

How the data were processed

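Reduced representation bisulfite libraries of muscle and of 4 teratomas were used, 1 library per group. The authors deposited, for each CpG cytosine, a methylation level in percent and no read count, the strands listed apart. Trim Galore 0.6.4, Bismark and build mm10 are named in the submitters' processing notes, which give no Bismark version; a coverage minimum was not given in the sources used here. The libraries went through PCR and gel size selection, per the labels' protocols, so reads of 1 molecule cannot be told apart, and sequencing used the Genome Analyzer.

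The position column was read as 1-based, since all 490393 cytosines checked against RefSeq promoters then fell in a CpG (56.2% with a shift by 1). Gene positions and promoters came from RefSeq tables of GRCm38.p6, which hold no exons, and strand for 33 of the 47 genes. Levels were means over cytosines listed in both libraries, 3 or more, with equal weight, and differences were rounded to 3 decimals. Where a sentence gives all 5 levels, they are over cytosines listed in all 5. The planned Fisher tests and minimum of 10 reads need read counts and were not run. The 300 bp promoters, strand checks and position shift were added after the data were seen, and the members and gene lists were chosen with earlier results of these data known.

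Named were all members in role order, up to 3 body tiles a member (5 or more cytosines, 25 points or more, 30 in all) and up to 4 called genes of each other list. Alternatives changed the threshold, windows, end, cytosine minimum, mean, strand joining, shared set, centring and tiles. The code was tested on simulated data. Scripts ran in Python 3.11.15 with pandas 2.3.3, NumPy 2.4.6 and, for figures, matplotlib 3.10.9.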

Additional observations from a re-analysis of the deposited data

Results flagged for a closer look

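One body tile of Pygm, the muscle glycogen phosphorylase gene, lay 25 points or more below muscle in some teratomas and as far above it in another. This tile (chr19:6392001-6393000, 12 cytosines, 8093 bp from the 5′ end) was at 44.4% in muscle, 11.1% in P5_2iL, 0% in P5_2iL_F, 58.8% in P5_a2iL_1 and 79.2% in P5_LCDM_1. The differences from muscle were -33.3 points in P5_2iL, -44.4 in P5_2iL_F, 14.3 in P5_a2iL_1 and 34.7 in P5_LCDM_1. With 1 library per group the difference between these effects was not tested.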

How the results depend on the processing

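No member end became lower than muscle under any of 16 alternatives in P5_2iL, P5_2iL_F and P5_a2iL_1, and 1 did in P5_LCDM_1 with the median over cytosines. In the main comparisons only 0.859% to 1.32% of all ends were lower, so the lack of lower ends says little about the members. The count for P5_2iL, 13 of 33, became 7 of 33 at 35 points and 8 of 25 with 10 or more cytosines. It became 8 of 13 at the end with fewer cytosines and 6 of 11 in RefSeq promoters. The count for P5_2iL_F, 13 of 32, became 8 of 32 at 35 points and 8 of 19 at the 5′ end. It became 6 of 13 at the end with fewer cytosines and 6 of 11 in promoters. With 25 points required on each strand it became 8 of 29. The 5′ end here is the outer boundary of the gene, and some genes have annotated starts elsewhere. The count for P5_a2iL_1, 8 of 33, became 5 of 25 with 10 or more cytosines and 6 of 12 at the end with fewer. It became 3 of 27 with each strand and 3 of 11 in promoters. The count for P5_LCDM_1, 5 of 33, became 3 of 25 with 10 or more cytosines and 6 of 12 at the end with fewer. It became 3 of 20 at the 5′ end, 3 of 28 with each strand and 2 of 11 in promoters. Fewer genes could be measured at 5′ ends, promoters and the poorer end (11 to 20), so a smaller count there need not be a smaller share. Among these alternatives the share over all genes was counted only for promoters. Of 39 called differences at ends, 20 were called under every alternative measured, and 2 reversed. Jph2 in P5_2iL_F became -2.32 at the end with fewer cytosines. Mb in P5_a2iL_1 became -2.38 at its 5′ end, which is its end with fewer cytosines. For both genes this is another place than the end used above. Other annotated Mb starts lie inside the gene, where no cytosine was listed in their promoters. At 35 points the tile counts of 106, 105, 71 and 75 (either direction) became 69, 59, 38 and 42, and that of P5_LCDM_1 became 47 with 5 or more cytosines. With the median over cytosines P5_LCDM_1 had 69 higher and 43 lower tiles in place of 57 and 18. No paired analysis was possible because each group holds 1 library. The alternative of 10 or more reads per cytosine was not run. The unknown depth and the strand differences in muscle limit what a single window shows.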

Other observations

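Gene bodies of the glycolytic and glycogen enzymes, picked out here after their values were seen, differed in the library that stood farthest from muscle. Pygm had 3 of 8 tiles higher than muscle in P5_2iL, 3 in P5_2iL_F, 3 in P5_a2iL_1 and 5 in P5_LCDM_1. Over all gene body tiles 17.9%, 16.8%, 11.9% and 10.4% were higher. A Pygm tile 3093 bp from the 5′ end (chr19:6387001-6388000, 17 cytosines) was at 53.7% in muscle, 48.9% in P5_2iL, 48.7% in P5_2iL_F, 58.6% in P5_a2iL_1 and 84.5% in P5_LCDM_1, and both strands in P5_LCDM_1 (86.1% and 82.0%) lay above both in muscle (54.2% and 57.9%). Pgam2, the muscle phosphoglycerate mutase, had 2 of 2 tiles higher in P5_2iL and in P5_2iL_F, 0 in P5_a2iL_1 and 1 in P5_LCDM_1. Jph1 had no higher tile, and 2 of its 8 tiles were lower than muscle in P5_LCDM_1 (background 5.84%). No cause of these values was tested.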
